A study of Canis lupus familiaris with 4 samples.

Results

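The genes described here are 46 genes of the cell cycle and of DNA replication, measured on 4 Affymetrix canine arrays of MDCK cells, a kidney epithelial line from dog. A gene was included where at least 1 probe set of the array carries its symbol and no other, and the probe set with the highest mean intensity stood for the gene. This gave 40 genes, of 15115 genes with such a probe set. No probe set with 1 symbol was found for *CCNB1*, *MKI67*, *BUB1*, *MAD2L1*, *KIF20A* and *CENPE*, which are not analysed here. The genes were sorted by the phase in which they are known to act into 13 genes of G1 and entry into S phase, 12 genes of S phase and 15 genes of G2 and mitosis, called mitotic below.

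The 4 conditions were HIF2α-KD cells in hypoxia (1% O2), control cells in hypoxia, HIF2α-KD cells in normoxia (16% O2) and control cells in normoxia, with 1 array each. All cells were MDCK strain II, kept in normoxia for 24 h before a further 24 h at 1 of the oxygen levels. HIF2α-KD cells (KD) carry a retroviral shRNA cassette against the canine *EPAS1* mRNA, which encodes the hypoxia-inducible factor HIF2α, and were selected with puromycin. The labels call the other cells wild type. They were taken as the control cells of the study, which carry the empty cassette, and the labels name no knockdown line. The study's text names HIF2α-KD#1 for the normoxic arrays. There are no replicates, so a difference between 2 arrays has neither an error nor a p-value.

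Cells enter the cycle when D-type cyclins with CDK4 or CDK6, and then cyclin E with CDK2, release E2F factors from the retinoblastoma proteins, and CDK inhibitors such as p21 and p27 hold these kinases back. E2F factors drive the genes of S phase, among them the MCM helicase that opens the DNA at origins, its loaders CDC6 and CDT1, the sliding clamp PCNA and the enzymes that make deoxynucleotides. The mitotic genes follow later, and encode cyclins A and B with CDK1, the Aurora and Polo kinases, the spindle checkpoint and the motors and kinetochore proteins of the spindle. Cultured epithelial cells slow this cycle when they become dense, and oxygen shortage can slow it as well.

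On the normoxic array labelled HIF2α-KD *EPAS1* was not lower, at an intensity of 47.9 against 44.6 on the control array, while in hypoxia it was 32.6 on the HIF2α-KD array and 116 on the control array. Except for 116, these values lie not far above the intensity filter, 28.6, which limits the difference that could be seen in normoxia. The normoxic array is therefore named by its label throughout (KD-labelled), and each direction that uses it rests on the label. Of 14 known hypoxia targets with a probe set, 12 passed the intensity filter. All 12 were higher in hypoxia under both cell line labels, at a median log2 difference of 2.10 on the arrays labelled HIF2α-KD and 1.84 on the control arrays. The filter takes the brightest array, so a target dim in normoxia could pass through a hypoxic array alone. Part of this agreement is therefore set by the filter. The epithelial genes *EPCAM*, *KRT8* and *KRT18* were bright on every array, at 2027 to 13868. None of 7 fibroblast markers passed the filter, while 1 of 5 endothelial and 3 of 4 leukocyte markers did. The summed intensity was 80.2 to 95.9 for the fibroblast, 118 to 146 for the endothelial and 112 to 132 for the leukocyte markers. *PAX8*, a renal epithelial factor, was listed at 1.00 on all arrays, and *CDH1*, the epithelial cadherin, at 81.4 in KD and 119 in control cells in hypoxia, against 18.9 in KD-labelled and 15.4 in control cells in normoxia. Correlations between arrays across genes on the log2 scale were 0.975 to 0.990.

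Most of the cell cycle genes gave signals far above the reporters. The brightest gene of S phase was *MCM6*, a subunit of the MCM helicase, with an intensity of 8701 on the HIF2α-KD array and 8725 on the control array in hypoxia, and 9922 on the normoxic array labelled HIF2α-KD and 9128 on the normoxic control array. The brightest mitotic gene was *TOP2A*, the DNA topoisomerase that untangles chromosomes, at 3742 in KD and 4789 in control cells in hypoxia, and 3412 in KD-labelled and 3450 in control cells in normoxia. Intensities of different probe sets are not on a common scale, so this order describes the signals and not the mRNA levels. *E2F1*, the transcription factor that turns on S phase genes, was at 5.04 in KD and 1.00 in control cells in hypoxia, and 2.34 in KD-labelled and 2.29 in control cells in normoxia. The 63 dim reporter probe sets, which represent no canine gene, had medians of 5.48 to 7.24 on the 4 arrays, so no level can be given for *E2F1*. *E2F1* was the only one of the 40 genes that did not pass the filter (highest intensity at least 28.6), which left 39 of 40 genes here and 9757 of 15115 in all. Among these 39, the highest array exceeded the lowest 1.39-fold in the median, against 1.40-fold over all genes.

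**Figure D1:**
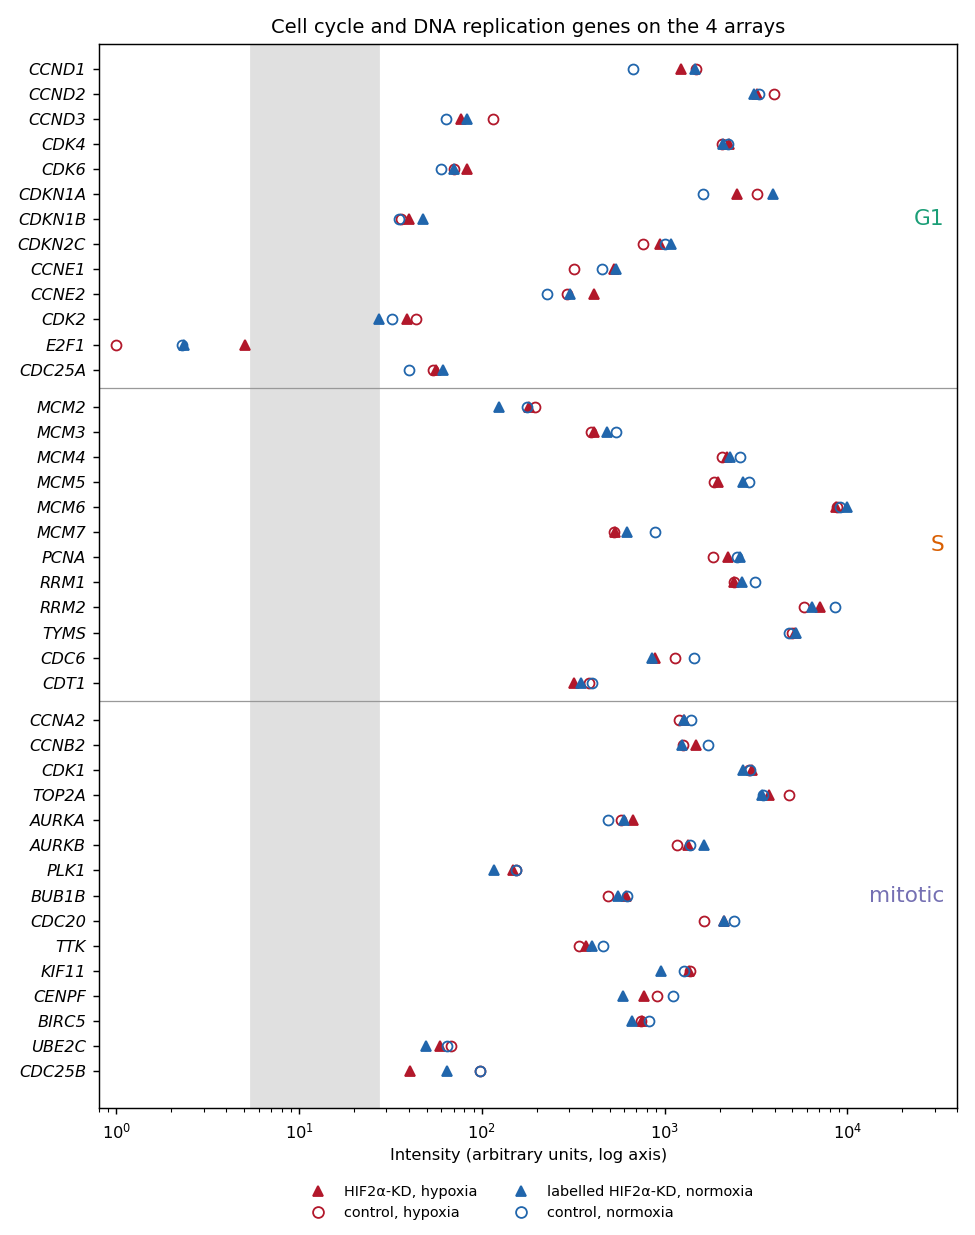
Intensity (log axis) of the 40 genes by group, where each symbol is 1 array without replicate and hence without an error bar. The grey band spans 5.48 to 27.2, the lowest reporter median and the highest reporter 95th percentile, and *E2F1* is the only gene whose 4 points all lie below its upper edge.

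The first question was whether hypoxia changed these genes. Differences are those of log2(intensity + 16), a scale on which dim genes appear to change less than they did, and a gene was counted from 1.5-fold on. On the arrays labelled HIF2α-KD none of 39 genes was 1.5-fold higher in hypoxia, against 5.47% of all genes, and 1 was 1.5-fold lower, *CDKN1A*, against 2.69%. On the control arrays 3 were 1.5-fold higher in hypoxia, *CCND1*, *CDKN1A* and *CCND3*, against 10.2% of all genes, and 2 were lower, *MCM5* and *MCM7*, against 4.31%. With quantile normalization the control arrays had 786 genes higher and 602 lower over the whole table, where the main scale gave 995 and 421. In either direction this is 1 gene on the arrays labelled HIF2α-KD and 5 genes on the control arrays, against 8.16% and 14.5% of all genes. Past 2-fold there was no gene on the arrays labelled HIF2α-KD, against 1.8% of all genes, and 1 on the control arrays, *CCND1*, against 3.58%. As shares of 39 genes these counts lie near or below those of all genes. The pairs of arrays behind the 2 cell line labels share no array. In RNA from a whole culture, a smaller share of cycling cells and less of an mRNA in each cell cannot be told apart.

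The 3 phases lay differently. On the arrays labelled HIF2α-KD the median hypoxia difference was -0.07 for 12 G1 genes, -0.13 for 12 S phase genes and 0.15 for 15 mitotic genes, where all genes had 0.023. On the control arrays the medians were 0.28, -0.36 and -0.14, where all genes had 0.025. The S phase median was thus below 0 under both labels, although with each gene taken as the mean over its probe sets it was 0.007 on the arrays labelled HIF2α-KD and -0.15 on the control arrays. The medians of the G1 and of the mitotic genes had opposite signs under the 2 labels. These medians are descriptions and were not tested.

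**Figure D2:**
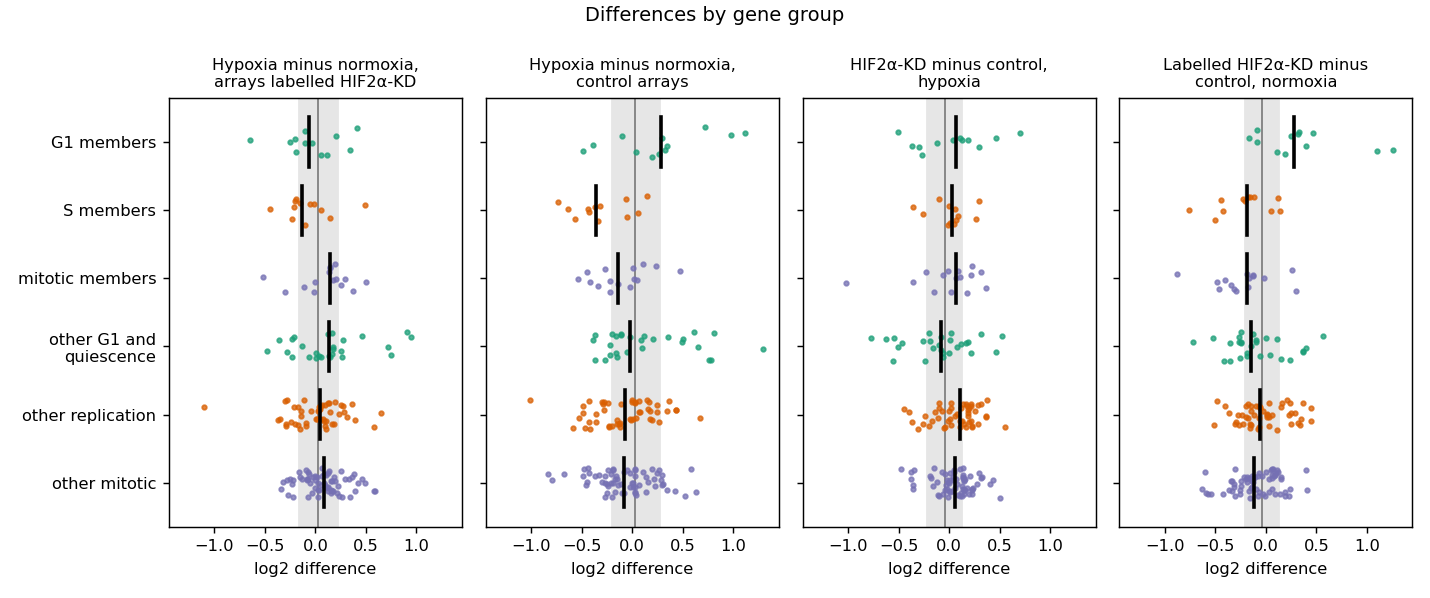
Log2 differences of the genes by group in each of the 4 comparisons. Each point is a gene that passed the filter, black bars are group medians, the grey line is the median of all genes and the grey band their interquartile range. The S phase median lies at -0.13 in the first panel, of the arrays labelled HIF2α-KD, and at -0.36 in the second, of the control arrays.

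The S phase genes showed the most similar pattern. Of 12 genes, 8 were lower in hypoxia under both labels and 1 was higher under both, against 29.8% and 36.1% of all genes. A list of 50 further replication genes, given below, did not share this pattern. *MCM5*, a subunit of the MCM helicase, was at 1960 on the HIF2α-KD array and 1866 on the control array in hypoxia, against 2675 on the array labelled HIF2α-KD and 2905 on the control array in normoxia. Both hypoxic arrays were below both normoxic arrays, and the log2 difference was -0.45 on the arrays labelled HIF2α-KD and -0.63 on the control arrays. *MCM3*, another subunit, had the same order, at 409 in KD and 396 in control cells in hypoxia, against 484 in KD-labelled and 541 in control cells in normoxia (-0.23 under the KD label and -0.44 in control cells). *PCNA*, the sliding clamp of the DNA polymerases, was at 2228 on the HIF2α-KD array and 1844 on the control array in hypoxia, against 2571 in KD-labelled and 2491 in control cells in normoxia (-0.21 under the KD label and -0.43 in control cells). *RRM1*, the large subunit of ribonucleotide reductase, was at 2387 in KD and 2409 in control cells in hypoxia, against 2656 in KD-labelled and 3118 in control cells in normoxia (-0.15 under the KD label and -0.37 in control cells). Both hypoxic arrays lay below both normoxic ones in 7 of the 12 genes, *MCM3* to *MCM7*, *PCNA* and *RRM1*, and in 12 of all 39, against 22.6% of all genes. They lay above in 1 of the 12, *MCM2*, and in 5 of the 39, against 27.1%. For *RRM1* the lower order held for 1 probe set only, since its others gave 0.12 and 0.26 under the KD label and -0.11 and 0.27 in control cells. The dimmest *MCM4* probe set had the reverse order. It was at 115.5 in KD and 135.3 in control cells in hypoxia, against 114.5 in KD-labelled and 115.2 in control cells in normoxia.

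*MCM7* was at 532 on the HIF2α-KD array and 528 on the control array in hypoxia, against 618 on the array labelled HIF2α-KD and 887 on the control array in normoxia. The control array in normoxia stood above the other 3, and the hypoxia difference was -0.21 under the knockdown label and -0.73 in control cells. A dimmer probe set of *MCM7* went the other way, at 153 in KD and 178 in control cells in hypoxia, against 56.7 in KD-labelled and 61.9 in control cells in normoxia (1.22 under the KD label and 1.32 in control cells), so the arrays give no single direction for this gene. *MCM4* was at 2195 in KD and 2058 in control cells in hypoxia, against 2274 in KD-labelled and 2567 in control cells in normoxia, and *MCM6* differed by -0.19 under the KD label and -0.06 in control cells. On the probe sets that stood for the genes, *MCM2* alone among the 6 helicase subunits was higher in hypoxia under both labels. It was at 181 in KD and 195 in control cells in hypoxia, against 124.5 in KD-labelled and 175 in control cells in normoxia, a difference of 0.49 on the arrays labelled HIF2α-KD and 0.14 on the control arrays.

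*RRM2*, the small subunit of ribonucleotide reductase, which limits deoxynucleotide supply, was at 7067 on the HIF2α-KD array and 5765 on the control array in hypoxia, against 6388 on the array labelled HIF2α-KD and 8566 on the control array in normoxia. Its hypoxia difference was 0.15 under the knockdown label and -0.57 in control cells, so that the order of oxygen levels was turned round. A further probe set of *RRM2* gave 0.18 under the KD label and -0.75 in control cells. *TYMS*, which makes thymidylate, was the flattest S phase gene, at 5178 in KD and 4963 in control cells in hypoxia, against 5242 in KD-labelled and 4760 in control cells in normoxia, with 1.10-fold between its highest and lowest array. The origin loader gene *CDC6* differed by 0.06 under the knockdown label and -0.34 in control cells, and *CDT1*, its partner, by -0.11 under the KD label and -0.05 in control cells. The further probe sets of *CDC6* gave 0.48 and 0.145 under the KD label and 0.04 and -0.18 in control cells. That of *CDT1* gave 0.05 under the KD label and 0.08 in control cells.

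Of the 15 mitotic genes none reached 1.5-fold between oxygen levels under either label. In hypoxia 4 were lower under both labels, 5 were higher under both and 6 had opposite signs, which is near the 29.8%, 36.1% and 34.1% of all genes. *CDC20*, the activator of the anaphase-promoting complex, was at 2120 on the HIF2α-KD array and 1647 on the control array in hypoxia, against 2121 on the array labelled HIF2α-KD and 2392 on the control array in normoxia. It was thus lowest in hypoxic control cells (-0.53) and level under the knockdown label. *CCNB2*, a B-type cyclin, was at 1479 in KD and 1259 in control cells in hypoxia, against 1242 in KD-labelled and 1723 in control cells in normoxia (0.25 under the KD label and -0.45 in control cells). Its second probe set gave -0.03 under the KD label and -0.83 in control cells. *BUB1B* and *TTK*, kinases of the spindle checkpoint, differed by 0.15 and -0.12 under the knockdown label and by -0.34 and -0.42 in control cells.

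*TOP2A* differed in the other direction, by 0.13 on the arrays labelled HIF2α-KD and by 0.47 on the control arrays, with hypoxic control cells highest. Its second probe set gave -0.30 under the KD label and 0.22 in control cells. *KIF11*, the motor that pushes the spindle poles apart, was at 1360 in KD and 1374 in control cells in hypoxia, against 955 in KD-labelled and 1274 in control cells in normoxia (0.50 under the KD label and 0.11 in control cells). *CDK1*, the kinase that starts mitosis, was among the flattest genes, at 3016 in KD and 2882 in control cells in hypoxia, against 2678 in KD-labelled and 2934 in control cells in normoxia. Its partner *CCNA2*, cyclin A, was at 1274 in KD and 1197 in control cells in hypoxia, against 1283 in KD-labelled and 1400 in control cells in normoxia. *AURKB*, a kinase of the chromosomal passenger complex, was lower under both labels (-0.30 under the KD label and -0.23 in control cells), and the Polo kinase *PLK1* differed by 0.30 under the KD label and 0.01 in control cells. *AURKA*, a kinase of the spindle poles, differed by 0.15 under the KD label and 0.23 in control cells, and its second probe set by 0.08 under the KD label and -0.21 in control cells.

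*BIRC5*, the survivin subunit of the passenger complex, differed by 0.19 under the knockdown label and by -0.14 in control cells. *UBE2C*, the ubiquitin-conjugating enzyme of the anaphase-promoting complex, was dim, at 59.3 in KD and 67.5 in control cells in hypoxia, against 49.6 in KD-labelled and 64.6 in control cells in normoxia. *CENPF*, a kinetochore protein, and *CDC25B*, the phosphatase that helps switch on CDK1, differed by 0.37 and -0.52 under the knockdown label and by -0.27 and 0.01 in control cells. A further *CENPF* probe set was lower in hypoxia under both labels, at -0.15 under the KD label and -0.43 in control cells.

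**Figure D3:**
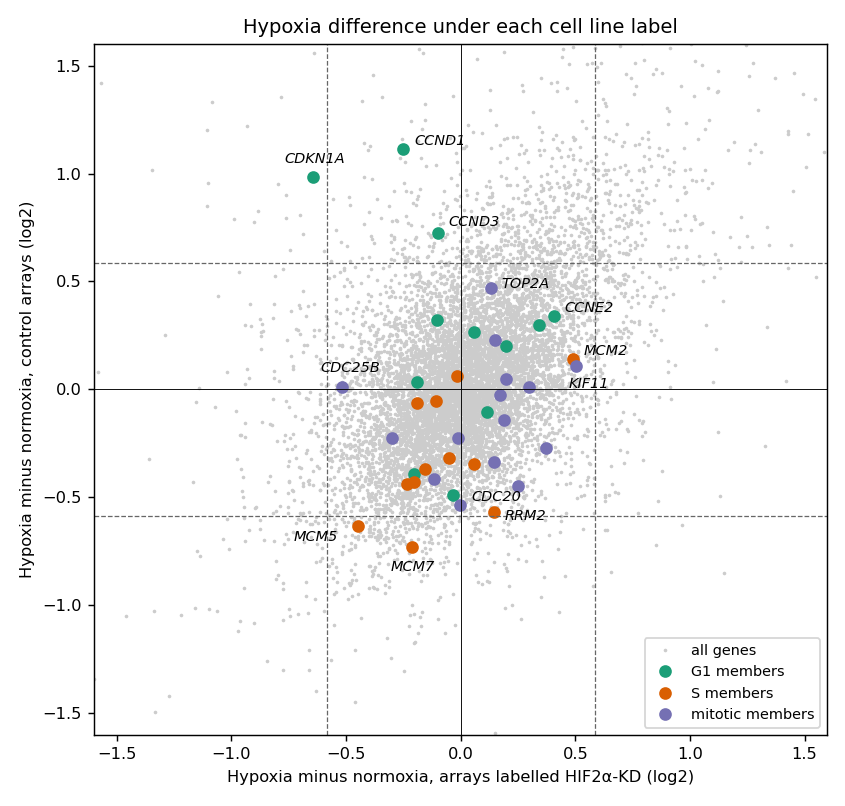
Hypoxia minus normoxia on the log2 scale, for the arrays labelled HIF2α-KD (horizontal) and the control arrays (vertical). Grey points are all genes, coloured points are the 39 cell cycle genes, dashed lines mark 1.5-fold, and 112 genes with a difference above 1.6 in size lie outside the axes. *CCND1*, *CDKN1A* and *CCND3* lie at the upper left, at 1.11, 0.98 and 0.72 on the control arrays, and *MCM5* and *MCM7* at the lower left.

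The G1 genes held the largest differences. *CCND1*, cyclin D1, was at 1225 on the HIF2α-KD array and 1478 on the control array in hypoxia, and at 1460 on the array labelled HIF2α-KD and 674 on the control array in normoxia. The control array in normoxia was the lowest, and the other 3 lay close together. The hypoxia difference was therefore -0.25 on the arrays labelled HIF2α-KD and 1.11 on the control arrays, and 2.55% of all genes differed by more in size on the control arrays.

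*CDKN1A*, which encodes the CDK inhibitor p21, had the same shape. It was at 2484 on the HIF2α-KD array and 3211 on the control array in hypoxia, and at 3890 on the array labelled HIF2α-KD and 1618 on the control array in normoxia. Its lowest array was again the control array in normoxia and its highest the normoxic array labelled HIF2α-KD, with 2.40-fold between them. Its hypoxia difference was -0.64 under the knockdown label and 0.98 in control cells, past 1.5-fold in opposite directions, although with its 3 probe sets averaged it was -0.43 under the knockdown label. Of all genes, 33 were past 1.5-fold in opposite directions in this way.

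*CCND3*, cyclin D3, was dimmer, at 76.3 in KD and 115 in control cells in hypoxia, against 82.9 in KD-labelled and 63.5 in control cells in normoxia (-0.10 under the KD label and 0.72 in control cells). *CCND2*, cyclin D2, was bright and differed by 0.06 under the KD label and 0.27 in control cells. Their kinase *CDK4* was the flattest G1 gene, at 2247 in KD and 2055 in control cells in hypoxia, against 2077 in KD-labelled and 2210 in control cells in normoxia, while *CDK6* was dim and differed by 0.20 under both labels. Of the other inhibitors, *CDKN1B*, which encodes p27, was dim, at 40.0 in KD and 36.1 in control cells in hypoxia, against 47.9 in KD-labelled and 34.95 in control cells in normoxia. *CDKN2C*, which encodes the CDK4 and CDK6 inhibitor p18, was at 937 in KD and 761 in control cells in hypoxia, against 1081 in KD-labelled and 1003 in control cells in normoxia, lower in hypoxia under both labels (-0.20 under the KD label and -0.39 in control cells).

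The E-type cyclins differed from each other on the probe sets that stood for them. *CCNE1* was at 526 on the HIF2α-KD array and 318 on the control array in hypoxia, against 539 on the array labelled HIF2α-KD and 452 on the control array in normoxia (-0.03 under the KD label and -0.49 in control cells). Its further probe set was level, at 0.023 under the KD label and 0.016 in control cells. *CCNE2* was at 409 in KD and 292 in control cells in hypoxia, against 305 in KD-labelled and 227 in control cells in normoxia (0.41 under the KD label and 0.34 in control cells), higher in hypoxia under both labels. Their kinase *CDK2* was dim and also higher under both (0.34 under the KD label and 0.30 in control cells), and *CDC25A*, the phosphatase that activates CDK2, differed by -0.10 under the KD label and 0.32 in control cells.

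Probe sets that did not stand for a gene gave a check of single measurements on the same RNA. Of 39 genes, 23 had further probe sets above the filter, 30 in all. The sign of the gene's own hypoxia difference was shared by 20 of these 30 on the arrays labelled HIF2α-KD and by 20 on the control arrays. A further probe set of *CCND1* gave hypoxia differences of -0.43 under the knockdown label and 1.08 in control cells. The 2 further probe sets of *CDKN1A*, both much dimmer, gave -0.38 and -0.26 under the knockdown label and 0.54 and 0.75 in control cells. Those of *MCM5* gave -0.57 and -0.14 under the knockdown label and -0.74 and -0.08 in control cells, so that the dimmest *MCM5* probe set showed little difference. Over all genes, a further probe set differed from the gene's own value by 0.17 in the median on the arrays labelled HIF2α-KD and by 0.20 on the control arrays. Hypoxia differences of that size, such as those of *TYMS* or *CDK4*, are no larger than the disagreement between probe sets.

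**Figure D4:**
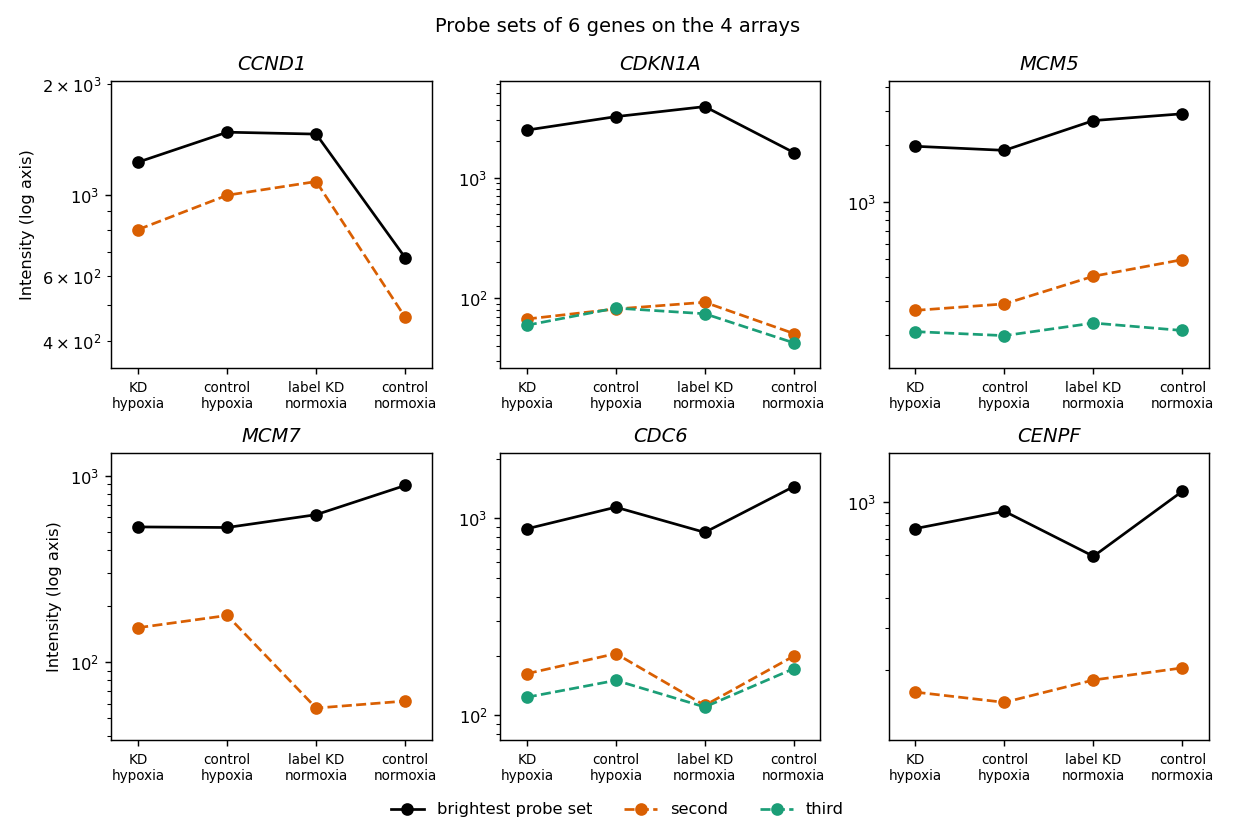
Intensity of every probe set above the filter for 6 genes, on log axes that differ between panels, with lines that join the values of 1 probe set and 1 point per array. The probe sets of *CCND1* and *CDKN1A* run together. Those of *CDC6* are all lower under the knockdown label, but differ in the direction of the hypoxia difference in control cells. The second probe set of *MCM7* lies at 153 in KD and 178 in control cells in hypoxia, and at 56.7 in KD-labelled and 61.9 in control cells in normoxia, opposite to the first.

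The second question was what the knockdown did at each oxygen level. In hypoxia 1 of 39 genes was at least 1.5-fold higher on the HIF2α-KD array than on the control array, *CCNE1* (0.70), against 1.62% of all genes. With quantile normalization 200 genes of the table were higher and 355 lower, where the main scale gave 158 and 480. A further *CCNE1* probe set gave 0.29. In the other direction 1 was 1.5-fold lower, *CDC25B*, against 4.92% of all genes. In either direction 6.54% of all genes passed 1.5-fold and 0.974% passed 2-fold, with *CDC25B* among the genes past 2-fold. *CDC25B* was at 40.3 on the HIF2α-KD array and 98.1 on the control array in hypoxia, and at 64.6 on the array labelled HIF2α-KD and 97.1 on the control array in normoxia. Both arrays with the knockdown label were below both control arrays, as in 7 of the 39 genes and 17.7% of all genes, with differences of -1.02 in hypoxia and -0.49 in normoxia. In 6 of the 39 both were above both control arrays, against 11.1% of all genes, among them *CCNE1* and *CCNE2*. For *CDC25B*, 0.840% of all genes differed by more in size in hypoxia. *CDC25B* had a single probe set, and its lowest value was not far above the 95th percentile of the reporters, 24.2 on that array.

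In normoxia 2 of 39 genes were 1.5-fold above control on the array labelled HIF2α-KD, *CDKN1A* (1.26) and *CCND1* (1.10), against 2.45% of all genes. Only 0.574% and 0.892% of all genes differed by more in size. These differences share the control array in normoxia with the hypoxia differences of the control cells, so they do not stand apart from them. In hypoxia, in arrays that share none with these, *CDKN1A* differed by -0.37 and *CCND1* by -0.27, that is, in the other direction and below 1.5-fold. All further probe sets of both genes had the same sign in normoxia, with differences of 0.62 to 1.20.

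Also in normoxia, 2 genes were 1.5-fold below control under the knockdown label, *CENPF* (-0.88) and *CDC6* (-0.76), against 3.55% of all genes. In either direction 6.0% of all genes passed 1.5-fold and 1.16% passed 2-fold, the 2 G1 genes *CDKN1A* and *CCND1* among them. *CDC6* was at 885 on the HIF2α-KD array and 1140 on the control array in hypoxia, and at 849 on the array labelled HIF2α-KD and 1451 on the control array in normoxia. Both arrays with the knockdown label were below both control arrays, and the difference in hypoxia was -0.36. Its 2 further probe sets gave -0.75 and -0.58 in normoxia and -0.31 and -0.26 in hypoxia. *CENPF* was at 773 in KD and 911 in control cells in hypoxia, and at 594 in KD-labelled and 1104 in control cells in normoxia, and its further probe set gave -0.15 in normoxia and 0.13 in hypoxia.

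By phase, the median knockdown difference in hypoxia was 0.07 for G1, 0.03 for S phase and 0.065 for mitotic genes, where all genes had -0.037. In normoxia it was 0.28, -0.19 and -0.19, where all genes also had -0.037. In normoxia 9 of 12 S phase genes and 13 of 15 mitotic genes were below 0, against 56.5% of all genes, and 9 of 12 G1 genes were above 0, against 43.5%. In the further lists read below, 28 of 50 replication genes and 43 of 66 mitotic genes were below 0. Only 8 of 27 other regulators of G1 and quiescence were above 0, with a median of -0.14, so that list did not share the G1 shift. Of the 15 mitotic genes 8 had their lowest intensity on the normoxic array labelled HIF2α-KD, against 30.7% of all genes, and 7 had their highest on the control array in normoxia, against 26.0%. Of the 12 S phase genes 8 were highest on the control array in normoxia, and of the 12 G1 genes 7 were lowest there, against 23.0% of all genes. A difference of the culture or of this array from the other 3 and an effect of the conditions cannot be told apart, since each condition has 1 array.

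**Figure D5:**
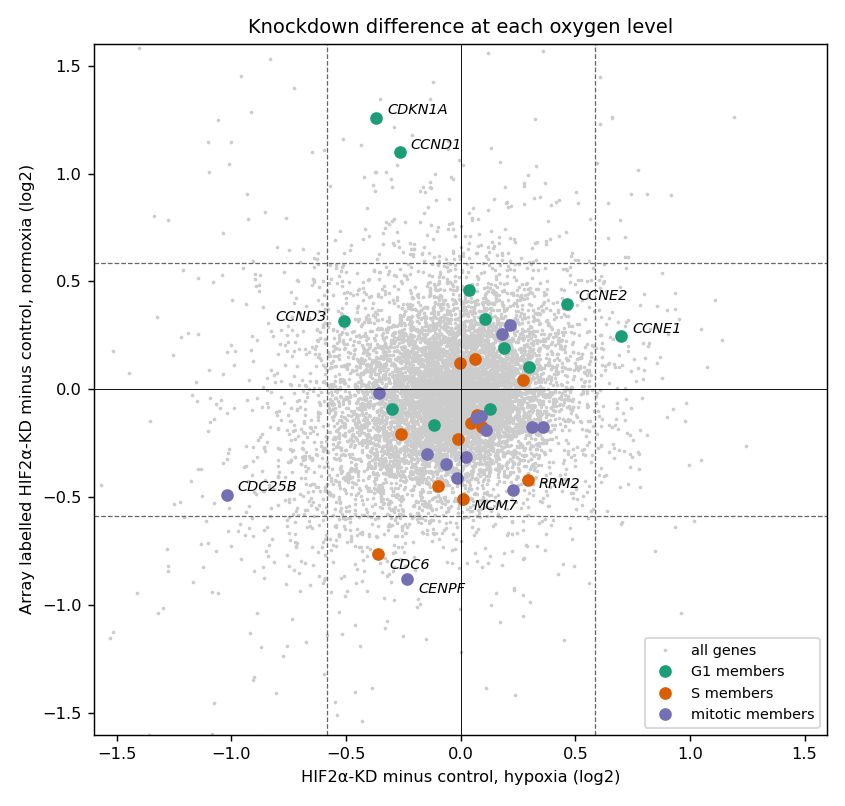
Knockdown difference on the log2 scale in hypoxia (horizontal) and in normoxia (vertical, array labelled HIF2α-KD minus control). Grey points are all genes, coloured points are the 39 cell cycle genes, dashed lines mark 1.5-fold, and 36 genes with a difference above 1.6 in size lie outside the axes. *CDKN1A* and *CCND1* lie at the top, at 1.26 and 1.10, *CENPF* and *CDC6* at the bottom, at -0.88 and -0.76, and *CDC25B* at the left, at -1.02.

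The change of the hypoxia difference between the cell line labels was computed for each gene as the value on the arrays labelled HIF2α-KD minus that on the control arrays, without a test. Its median was -0.10 for G1, 0.22 for S phase and 0.28 for mitotic genes, where all genes had -0.002. The G1 median turned to 0.068 with the filter at the 75th percentile and was -0.001 without a filter. It was above 0 in 9 of 12 S phase and 11 of 15 mitotic genes, against 49.6% of all genes. *RRM2* (0.71), *CCNB2* (0.70) and *CENPF* (0.64) had the largest values, and *CDKN1A* (-1.63), *CCND1* (-1.36) and *CCND3* (-0.82) the lowest. These values rest on all 4 arrays, the normoxic array labelled HIF2α-KD among them. For *CENPF*, the opposite signs behind its value were not shared by its further probe set, which was lower in hypoxia under both labels. The further probe set of *CCNB2* did not share them either, at -0.03 under the KD label and -0.83 in control cells.

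The only fit with a test used all 4 arrays, with limma and additive terms for oxygen and cell line label. None of the 39 genes passed an adjusted p of 0.05 for oxygen, against 2.87% of all genes, and 5 had an unadjusted p under 0.05, against 20.6%. *MCM5* came nearest, with an oxygen difference of -0.54 ± 0.12 (SE) and an adjusted p of 0.0693 over all genes. It was followed by *MCM7* (-0.47 ± 0.17, adjusted p = 0.19), *CCNE2* (0.37 ± 0.14, adjusted p = 0.20) and *PCNA* (-0.32 ± 0.12, adjusted p = 0.209). *MCM5* passed under 3 of 10 alternatives, with an adjusted p of 0.0411 to 0.144 over all of them. For the knockdown term limma called no gene of the table, 0.0%, and 5 of the 39 had an unadjusted p under 0.05, against 9.62% of all genes. The smallest adjusted p among the 39 was that of *CDC25B*, 0.243, at a difference of -0.75 ± 0.18. With 1 residual degree of freedom, the fit takes oxygen to act alike in both cell lines. For *CCND1* and *CDKN1A* the fitted oxygen differences of 0.43 ± 0.29 and 0.17 ± 0.33 are means of values with opposite signs.

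Further genes of the cycle were read from 3 lists. These were chosen with earlier results of these data known, so their counts do not test the lists against all genes. Of 27 measured regulators of G1 and quiescence, limma called 4 higher and none lower in hypoxia, against 2.46% of all genes called higher. *MXI1*, a transcription factor that opposes MYC and is a known target of hypoxia-inducible factors, rose by 1.10 ± 0.16 (adjusted p = 0.0222), with 371.5 on the HIF2α-KD array and 535 on the control array in hypoxia, against 190.3 in KD-labelled and 209 in control cells in normoxia. *MYC* itself, the growth-promoting factor, rose by 0.86 (adjusted p = 0.0338), at 766 in KD and 1136 in control cells in hypoxia, against 391 in KD-labelled and 654 in control cells in normoxia. *E2F8*, an E2F factor that represses S phase genes, rose by 0.76 and *CCNG2*, an unusual cyclin linked to cell cycle arrest, by 0.75 (both adjusted p = 0.0437). *MYC* and *CCNG2* were also lower on both arrays with the knockdown label than on their control arrays, *MYC* by -0.56 in hypoxia and -0.72 in normoxia and *CCNG2* by -0.54 and -0.52, and neither passed for that term (adjusted p = 0.229 and 0.288). The dimmest probe set of *MXI1*, near the filter at 36.3 to 40.4, differed by 0.11 under the KD label and -0.004 in control cells. A second probe set of *E2F8* gave 0.55 and 0.26, and one of *CCNG2* gave 1.04 and 0.74, under the knockdown label and in control cells. These calls were lost under 2 of 10 alternatives for *MXI1*, 3 of 10 for *MYC*, 4 of 9 for *E2F8* and 4 of 10 for *CCNG2*, where the adjusted p over all alternatives was 0.00764 to 0.135. *FBXW7*, the ubiquitin ligase subunit that marks cyclin E for degradation, and *LIN9*, a subunit of the complexes that repress or activate cell cycle genes, were the next in size. They had fitted oxygen differences of 0.44 and 0.41 (adjusted p = 0.179 and 0.172). A second, dimmer probe set of *LIN9* gave 0.34 under the KD label and -0.28 in control cells. Over the 27 genes the median hypoxia difference was 0.14 under the KD label and -0.025 in control cells. The medians of the G1 genes above had the opposite signs.

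Of 50 further replication genes limma called 1, lower in hypoxia, against 0.41% of all genes. *POLA1*, the catalytic subunit of the polymerase that lays down primers, fell by 1.06 on the log2 scale (adjusted p = 0.0173), at 81.0 on the HIF2α-KD array and 59.3 on the control array in hypoxia, against 192 in KD-labelled and 136 in control cells in normoxia. Its other probe set, at 75.7 in KD and 70.4 in control cells in hypoxia, against 69.9 in KD-labelled and 52.6 in control cells in normoxia, did not share this direction, and with the mean of both the adjusted p was 0.136. The call was lost under 3 of 10 alternatives, with an adjusted p of 0.00331 to 0.136 over all of them. *UHRF1*, which keeps DNA methylation through replication, was higher in hypoxia by 0.65 on the arrays labelled HIF2α-KD and by 0.67 on the control arrays (adjusted p = 0.0598). *POLD1* and *GINS2*, a polymerase subunit and a helicase partner, had fitted differences of -0.45 and -0.43, and the clamp loader gene *RFC1* and another helicase partner, *GINS3*, of 0.41 each, with adjusted p-values of 0.16 to 0.223. The second probe set of *GINS3* went the other way, with -0.27 under the KD label and -0.62 in control cells, as did 1 of the 4 further probe sets of *RFC1*, with -0.35 under the KD label and -0.86 in control cells. The list median of the hypoxia difference was 0.04 on the arrays labelled HIF2α-KD and -0.07 on the control arrays. Of the 50 genes 14 were lower in hypoxia under both labels and 17 were higher under both. This is near the 29.8% and 36.1% of all genes, unlike the 12 S phase genes above.

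Of 66 further mitotic genes none passed for oxygen with limma, and 7 had an unadjusted p under 0.05, a share below the 20.6% of all genes. The largest fitted differences were those of the condensin subunit *SMC2* (0.58), *TACC3* (-0.55), which stabilises spindle microtubules, *PTTG1* (-0.51), the securin that guards sister chromatids, the CDK1 phosphatase *CDC25C* (-0.48), *DEPDC1* (0.39) and the condensin subunit *NCAPD2* (-0.38), with adjusted p-values of 0.131 to 0.249. *PTTG1* was at 2039 in KD and 1738 in control cells in hypoxia, against 2384 in KD-labelled and 3031 in control cells in normoxia, with a difference of -0.22 under the knockdown label and -0.80 in control cells. The list median of the hypoxia difference was 0.09 under the knockdown label and -0.08 in control cells, the same signs as in the 15 mitotic genes above, and the change between labels was above 0 in 46 of 66 genes, against 49.6% of all genes.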

How the data were processed

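RNA from 1 sample per condition was labelled with biotin by the authors (100 ng total RNA, Affymetrix 3' labelling kit) and hybridised to 4 canine arrays. The deposited table holds intensity values on a linear scale for 42924 probe sets. How they were summarized, background-corrected and scaled, and with which software, is not given in the sources used here. Depth has no counterpart on arrays, and their number limits the precision. Gene names come from the platform annotation, in which 29254 probe sets carry 1 symbol, 439 several and 13167 none. Values were taken as log2(intensity + 16) for genes whose brightest array reached 28.6, the median of all values.

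Pairs of arrays were compared by their log2 difference, with no test, and counted at 1.5-fold. limma (trended prior, Benjamini-Hochberg over 9757 genes, 0.05) was fitted to all arrays. All listed genes may be named, with up to 6 genes of each further list by size of the oxygen term, those called by limma, *EPAS1* and the marker genes. The genes and lists were chosen with earlier results of these data known. Alternatives were quantile, cyclic loess and median scaling, no filter or one at the 75th percentile (175), all probe sets of a gene averaged, pseudocounts of 1 and 64, a 2-fold threshold and limma without trend or with robust moderation. No sequence or genome was used, and the planned search for promoter motifs was not made. R 4.3.3, limma 3.58.1, Python 3.11.15, numpy 2.4.6, pandas 2.3.3 and matplotlib 3.10.9 were used.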

Additional observations from a re-analysis of the deposited data

Results flagged for a closer look

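The hypoxia difference of *CDKN1A* was past 1.5-fold in opposite directions under the 2 cell line labels, -0.64 on the arrays labelled HIF2α-KD and 0.98 on the control arrays. The difference between these values was not tested, since each rests on 1 array per condition. The *CDKN1A* intensity was 2484 in hypoxia against 3890 in normoxia under the knockdown label, and 3211 in hypoxia against 1618 in normoxia in control cells. Its 2 further probe sets had the same signs. With the 3 averaged the values were -0.43 on the arrays labelled HIF2α-KD, which is under 1.5-fold, and 0.76 on the control arrays. On the normoxic array labelled HIF2α-KD *EPAS1* was not lower than in control cells (47.9 against 44.6, both not far above the filter), and the part of this in the *CDKN1A* values was not tested. No group holds enough arrays to look for an array that stands apart.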

How the results depend on the processing

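With a 2-fold threshold the numbers of cell cycle genes counted became 0 for hypoxia on the arrays labelled HIF2α-KD, 1 for hypoxia on the control arrays, 1 for the knockdown in hypoxia and 2 for the knockdown in normoxia, against 1, 5, 2 and 4 at 1.5-fold. With all probe sets of a gene averaged *MCM7* turned to 0.29 for hypoxia on the control arrays, through its second probe set, the S phase median there became -0.15 (0.007 under the knockdown label, and -0.009 for the knockdown in hypoxia), and the counts became 0 for hypoxia under the knockdown label and 1 for the knockdown in hypoxia. That last count was also 1 with the filter at the 75th percentile, which drops *CDC25B*, and a pseudocount of 1 gave 2 for hypoxia under the knockdown label. The G1 median of the change between labels turned to 0.068 with the stricter filter. Of 120 group medians under alternatives 119 stayed within the spread between probe sets, as did 85 of 94 single differences counted at 1.5-fold, and the cause of the others was not tested. That spread was 0.15 to 0.20, larger than several of the medians themselves. A median near 0 could thus change sign and still be counted as within it, so this count says little about such medians.

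limma called 280 genes of the table for oxygen (240 higher and 40 lower), 484 with quantile normalization (326 and 158), 435 with median centring (329 and 106), 163 with cyclic loess, 460 with robust moderation, 101 without the trend and 70 without the filter. The number of cell cycle genes called for oxygen was 1, *MCM5*, with quantile normalization, median centring and robust moderation, and 0 otherwise. For the knockdown limma called 0 genes (939 at an unadjusted p under 0.05), and 16, 15 and 21 with these 3 settings and 10 and 4 with pseudocounts of 1 and 64, none of them a cell cycle gene listed here. No paired analysis was possible because the labels give no replicate numbers to pair by, beyond the cell line term, which already sets the oxygen levels against each other within each label. With 1 array per condition none could be left out. Dim genes such as *CDC25B* and *CCND3* lie near the reporter signal, which limits the size of their differences.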
